A study of Mus musculus with 8 samples.

Results

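The Toll-like receptor (TLR) and RP105 system was followed through 10 transcripts in sorted germinal centre (GC) B cells of the mouse, of 23471 RefSeq entries in each deposited table. The 10 genes were Ly86, Cd180, Tlr1, Tlr4, Tlr6, Tlr7, Tlr9, Myd88, Unc93b1 and Irak1, matched by symbol in both tables. Ly86 was picked on its low values in the Irf8 knockout group of these same data, so its difference between the groups is given as a description with no test. The other 9 were taken by name as receptors, partners and signalling proteins of the same system.

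GC B cells with the surface phenotype B220+ FAShigh GL7high came from C57BL/6 mice 13 days after immunization with NP-KLH, in which the hapten NP is coupled to a carrier. Ctrl mice were Irf8+/+ and Irf8 cKO mice were Irf8flox/flox, with 1 library of each genotype in each of 2 experiments (n = 2 per group). Both groups also carry 1 copy of a Cre allele that is active in B lineage cells. The labels do not give the age of the mice or say whether animals were pooled, and the 4 samples of B cells activated with lipopolysaccharide were not analysed here.

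TLRs are sensors of microbial molecules that B cells carry beside their antigen receptor. TLR1, TLR6 and TLR4 sit at the cell surface and read bacterial lipopeptides and lipopolysaccharide, while TLR7 and TLR9 read RNA and DNA in endosomes, which they reach with the transporter UNC93B1. MyD88 is the adaptor and IRAK1 a kinase through which these receptors signal. RP105, encoded by Cd180, is a B cell surface protein related to TLR4 that lacks the intracellular signalling domain of TLRs, and MD-1, encoded by Ly86, is the secreted protein that binds its ectodomain as MD-2 binds that of TLR4.

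Read totals, estimated from the spacing of low values of single-exon genes, ran from 63.4 to 76.4 M per library. Genes at 1 RPKM or more (RPKM is reads corrected for transcript length and for the library's mapped total) numbered 6567 and 6434 in the Ctrl libraries, and 6172 and 4846 in the cKO-labelled libraries. The cKO-labelled library of experiment 2 stood apart, with 16716 RPKM of the ribosomal RNA precursor Rn45s against 5887 to 9085 in the other 3. All genes together were displaced in the deposited values: the median gene of the cKO-labelled libraries was at 84.2% of Ctrl in experiment 1 and at 58.6% in experiment 2. Comparisons therefore used RPKM divided by a median-of-ratios factor per library, with the deposited RPKM given beside them. All 6 B cell markers and all 7 GC B cell markers of the lists used reached 1 RPKM in at least 2 libraries, whereas 7 T cell markers found in the tables stayed below 1 RPKM in every library. Plasma cell markers summed to 38.6 and 22.3 RPKM in Ctrl 1 and 2, and to 29.1 and 16.0 in the cKO-labelled libraries, most of it Igj. After scaling 3 of the 6 B cell markers had a log2 ratio below 0. Ms4a1 was lowest, at 60.4% and 57.5% of Ctrl (log2 ratio -0.75, limma adjusted p = 0.228). As deposited, 1 of the 6 was lower at a limma adjusted p under 0.05. Irf8 itself, the gene the cross targets, stood at 14.5 RPKM in Ctrl 1 and 14.9 in Ctrl 2, beside 20.6 and 11.6 in cKO-labelled libraries 1 and 2. That single value covers all exons and does not check the deletion, so directions are those of the libraries as labelled. Its scaled values were 169% and 130% of Ctrl (log2 ratio 0.53, limma adjusted p = 0.307).

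The start regions of Ly86, of its partner Cd180 and of the adaptor gene Myd88 are shown because the first pair encodes the RP105 complex and the third was the tested gene with the highest ratio among the 10. Each stretch holds 150 bases before the RefSeq start and 15 bases of transcript, 5′ to 3′ on the gene's strand, from RefSeq on GRCm38.p6, the assembly of mm10. The stretches lie at chr13:37345195-37345359 (plus strand) for Ly86, chr13:102693408-102693572 (plus strand) for Cd180 and chr9:119340004-119340168 (minus strand) for Myd88. In Myd88, capitals mark a match to the core of the interferon-stimulated response element, a sequence that IRF proteins bind. The Ly86 stretch does not hold that core. Its capitals mark a shortened form of the core that was chosen after the Ly86 window was read.
Ly86: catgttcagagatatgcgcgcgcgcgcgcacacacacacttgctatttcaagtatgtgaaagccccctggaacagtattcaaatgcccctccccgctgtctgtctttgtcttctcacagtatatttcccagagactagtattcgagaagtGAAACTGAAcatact
Cd180: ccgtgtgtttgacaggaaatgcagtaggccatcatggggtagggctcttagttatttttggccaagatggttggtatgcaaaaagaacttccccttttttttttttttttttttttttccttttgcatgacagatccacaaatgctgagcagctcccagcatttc
Myd88: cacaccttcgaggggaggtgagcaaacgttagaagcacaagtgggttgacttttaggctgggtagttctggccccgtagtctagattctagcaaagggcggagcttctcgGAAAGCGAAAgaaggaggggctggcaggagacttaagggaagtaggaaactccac

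Promoter windows of 300 bases (250 before the start and 50 after) were found for 7 of the 10 genes, 11 windows in all, and none was matched for Tlr4, Tlr7 and Unc93b1. The motifs were searched on both strands. The composite ETS and IRF motif, GGAA with any 2 bases and then GAAA, was in 2.72% of all 32851 promoter windows and in none of the 11. The response element core, GAAA with any 2 bases and then GAAA, was in 3.44% of all windows. It was found in Myd88, 40 bases before the RefSeq start, which itself lies 22 bases inside the transcript of the deposited tables, and in a second window of Tlr6 that lies 868 bases from the start in the deposited tables. A form 1 base shorter, GAAANNGAA, which takes in every match of the core, was chosen after the Ly86 window was read and is in 8.56% of all windows. In Ly86 it begins on the first base of the transcript. These matches are descriptions of letters and say nothing of binding.

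In Ctrl GC B cells the RP105 receptor was by far the most abundant of the 10 transcripts. Cd180 (NM_008533, chromosome 13, 102693558 to 102706631, plus strand, mm10) stood at 95.1 RPKM in Ctrl 1 and 97.7 in Ctrl 2, a mean above that of 99.9% of all entries. Exons of Mast4 overlap Cd180 on the opposite strand, and nothing in the labels says that strand was used in counting; Mast4 as a whole measured 1.57 to 2.63 RPKM. Ly86 (NM_010745, chromosome 13, 37345345 to 37419036, plus strand) followed at 19.0 and 12.3 RPKM, and Unc93b1 (chromosome 19, 3935186 to 3949340, plus strand) at 14.0 and 11.8. The Ctrl libraries of these 2 genes overlapped, so their order was not separated.

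Tlr9, the endosomal DNA sensor, had the highest Ctrl mean of the TLRs, with 8.09 and 6.25 RPKM in Ctrl 1 and 2. Tlr1, which pairs with TLR2 to sense lipopeptides, measured 6.67 and 7.52 RPKM and was not separated from Tlr9. Irak1 lay lower at 2.84 and 3.64. Tlr4, Tlr6 and Myd88 were near 1 RPKM, at 1.42 and 1.18, 1.23 and 0.927, and 1.10 and 0.877, and neighbours in that order overlapped. Tlr7, the endosomal RNA sensor, was lowest at 0.116 and 0.109 RPKM, an estimated 32 and 26 reads. In Ctrl, the RPKM of Tlr9 was thus 69.7 and 57.2 times that of Tlr7 within the same library.

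The 7 remaining TLR genes were at or near 0 in these cells. Tlr2, Tlr3, Tlr5, Tlr8, Tlr11, Tlr12 and Tlr13 together summed to between 0.1 and 0.285 RPKM per library, and Tlr5 and Tlr11 were listed at 0 in all 4. Cd14, the lipopolysaccharide co-receptor of myeloid cells, was also listed at 0 throughout. Tlr2, the partner of TLR1 and TLR6, was thus below 1 RPKM in every library.

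**Figure D1:**
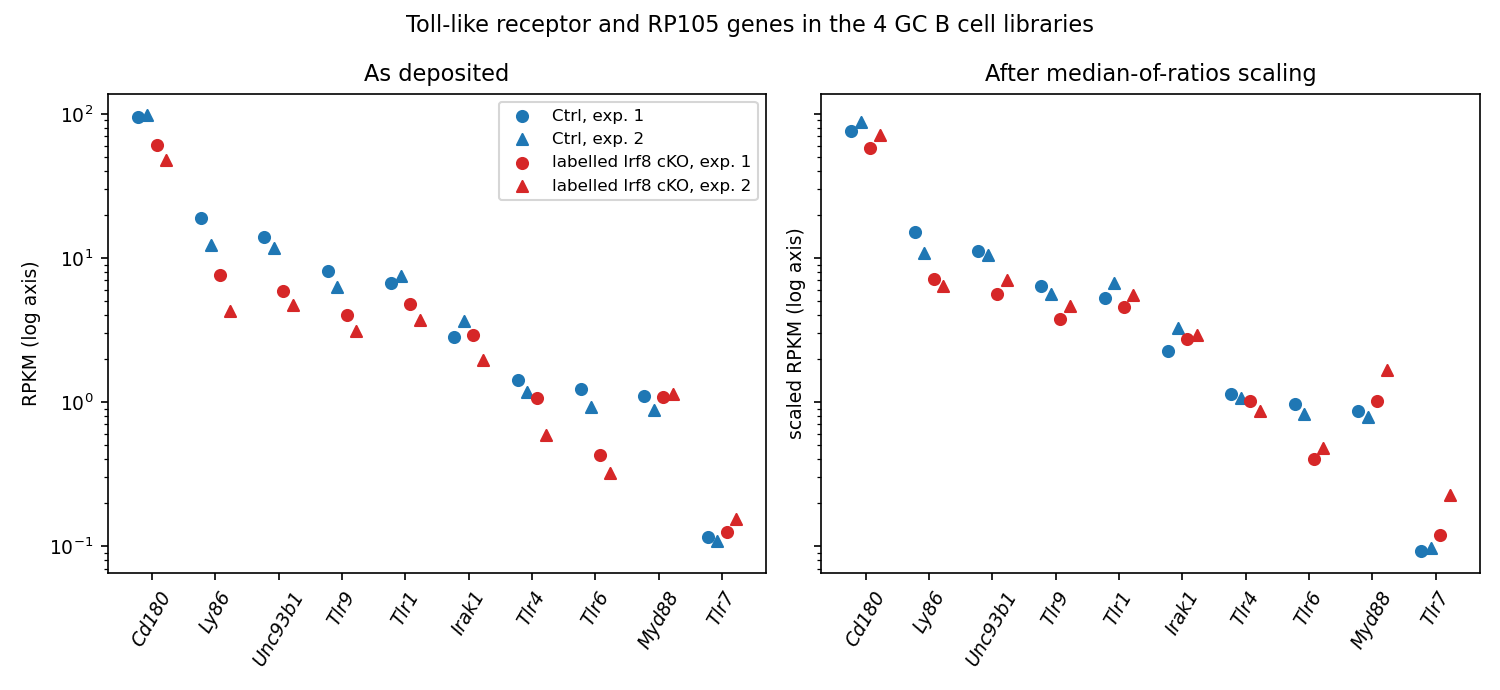
RPKM of each of the 10 genes (log axis) in the 4 libraries, as deposited (left) and after median-of-ratios scaling (right), ordered by the Ctrl mean; blue is Ctrl, red is the cKO-labelled libraries, circles are experiment 1 and triangles experiment 2. Cd180 sits near 100 RPKM in Ctrl and Tlr7 near 0.1, and the gap between red and blue narrows for most genes after scaling.

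Whether these transcripts differ with the Irf8 genotype was then asked within each experiment. Of the 7 tested genes that were not picked for their values, 0 passed (limma on log2(scaled RPKM + 1), Benjamini-Hochberg threshold 0.05). Over all genes tested 0.636% passed, 26 lower and 15 higher of 6447. In the RPKM as deposited 0 of the 7 passed as well, against 1.19% of all genes. At an unadjusted p under 0.05 on scaled values, 2 of the 7 were counted, Unc93b1 and Tlr9, and 735 of the 6447 genes. The counts over all genes hung on the settings: with any 1 library left out, Ctrl 1, Ctrl 2 or either of the others, 0 to 1 genes passed as lower and 0 to 1 as higher, and scaling factors over all genes above 0 gave 0 and 0. Nothing in the labels says that libraries of a group came from separate animals, so p-values speak only of these libraries. The spread behind the p-values, SE and intervals is not that of each gene alone. On scaled values limma drew it mostly from a variance trend over all genes tested (prior degrees of freedom 13.1). As deposited it came wholly from that trend (prior degrees of freedom infinite).

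The genes of the RP105 complex come first. Ly86 measured 19.0 RPKM in Ctrl 1 against 7.61 in the cKO-labelled library 1, and 12.3 in Ctrl 2 against 4.30 in the cKO-labelled library 2. Both cKO-labelled libraries lay below both Ctrl libraries, as they did after scaling, where Ly86 was at 47.5% of Ctrl in experiment 1 and 58.3% in experiment 2. Its log2 ratio over both experiments was -0.84 after scaling and -1.27 as deposited, and these are the values that chose it. Without Ctrl 1 the scaled log2 ratio was -0.62, and without Ctrl 2 it was -1.05. The authors' deposited table gives Ly86 a log2 ratio of -1.12 in experiment 1 and -0.79 in experiment 2.

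Ly86 is also transcribed in macrophages and dendritic cells, and myeloid transcripts differed between these libraries. The 17 myeloid marker genes found in the tables summed to 79.8 and 10.4 RPKM in Ctrl 1 and 2 and to 22.0 and 2.97 in the cKO-labelled libraries 1 and 2. In each library S100a8, S100a9, Ngp and Lyz2 made up most of that sum. Of the 4 tested, the neutrophil genes S100a8, S100a9 and Ngp passed as lower (limma adjusted p = 0.0354, 0.0168 and 0.00131), with S100a8 at 26.0 RPKM in Ctrl 1 and 1.69 in Ctrl 2. Cd14, Fcgr1 and C1qb were listed at 0 in all 4 libraries, and Csf1r, the receptor that defines macrophages, reached at most 0.0935 RPKM. Lyz2, the lysozyme gene of macrophages and neutrophils and the fourth tested gene of the list, stood at 16.5 RPKM in Ctrl 1, 3.47 in Ctrl 2, and 9.34 and 0.988 in the cKO-labelled libraries, at 67.3% and 47.2% of Ctrl after scaling (log2 ratio -0.63, limma adjusted p = 0.144). Csf3r, the granulocyte colony-stimulating factor receptor gene, lay the other way at 228% and 348% of Ctrl, with at most 0.385 RPKM. Emr1, C1qa and C1qc of the same list were also above Ctrl in experiment 1 after scaling (219%, 457% and 152%). None of them exceeded 0.0993 RPKM in any library. Dendritic cell markers summed to 1.30 to 2.04 RPKM, of which Flt3 made up most. Ly86 exceeded the whole myeloid sum in Ctrl 2 (12.3 against 10.4) and in the cKO-labelled library 2 (4.30 against 2.97), but not in experiment 1. That sum depends on which genes were listed, so it sets no limit on the myeloid part of Ly86. The part of myeloid RNA in the Ly86 difference was not tested. In bulk samples, fewer cells of a type and less RNA per cell cannot be told apart.

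Cd180, the receptor that MD-1 binds, measured 95.1 RPKM in Ctrl 1 against 61.2 in the cKO-labelled library 1, and 97.7 in Ctrl 2 against 47.9. Both cKO-labelled libraries lay below Ctrl on either scale, but after scaling Cd180 was at 76.4% and 81.4% of Ctrl. Its log2 ratio was -0.34 ± 0.26 (SE), with a 95% interval from -0.89 to 0.21 and an adjusted p of 0.663 by limma. It was -0.82 as deposited (adjusted p = 0.204) and -0.19 without cKO-labelled library 1. Within a library, the RPKM of Cd180 was 5.0 and 7.97 times that of Ly86 in Ctrl 1 and 2, and 8.04 and 11.1 times in the cKO-labelled libraries. The ratio was higher in the cKO-labelled library of both experiments, but Ctrl 2 (7.97) lay next to cKO-labelled library 1 (8.04). Since Ly86 was picked for its values, this ratio is a description.

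Of the genes of the endosomal arm, Unc93b1 and Tlr9 were lower in the cKO-labelled libraries in their values and Tlr7 was higher. Unc93b1 and Tlr9 did not pass the test, and Tlr7 was too low to enter it. Unc93b1, the transporter of nucleic-acid sensing TLRs, measured 14.0 RPKM in Ctrl 1 against 5.91 in the cKO-labelled library 1, and 11.8 in Ctrl 2 against 4.72. The groups did not overlap on either scale. After scaling it was at 50.3% of Ctrl in experiment 1 and 66.6% in experiment 2. Its log2 ratio was -0.70 ± 0.18 (SE) with a 95% interval from -1.09 to -0.31, and it did not pass (limma, adjusted p = 0.116, and 0.0533 as deposited at a log2 ratio of -1.14). Over the other settings tried, its log2 ratio ran from -1.14 to -0.52 and its adjusted p from 0.0533 to 1.00. The authors' deposited table gives -1.06 and -0.54 for the experiments in turn (p = 0.00187 and 0.154), each for 1 library against 1.

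Tlr9 measured 8.09 RPKM in Ctrl 1 against 4.03, and 6.25 in Ctrl 2 against 3.12, in the cKO-labelled libraries of the same experiments. The groups did not overlap on either scale, and after scaling Tlr9 was at 59.1% and 82.9% of Ctrl. The log2 ratio was -0.43 ± 0.18 (SE; limma, adjusted p = 0.368), with a 95% interval from -0.80 to -0.05. It was -0.84 as deposited (adjusted p = 0.173), and within the experiments it was -0.63 and -0.23. Within a library its RPKM was 0.580 and 0.531 times that of Unc93b1 in Ctrl and 0.681 and 0.661 times in the cKO-labelled libraries.

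Tlr7 lay below the level needed for testing, and both its cKO-labelled values were above both Ctrl values. It measured 0.116 RPKM in Ctrl 1 against 0.126, and 0.109 in Ctrl 2 against 0.154, an estimated 26 to 37 reads per library. In a fit with no filter on low values its log2 ratio was 0.10 ± 0.06 (SE; limma, adjusted p = 0.709). The excess of Tlr9 over Tlr7 was 69.7 and 57.2 times in Ctrl and 32.0 and 20.3 times in the cKO-labelled libraries. That ratio carries the counting error of the few Tlr7 reads.

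**Figure D2:**
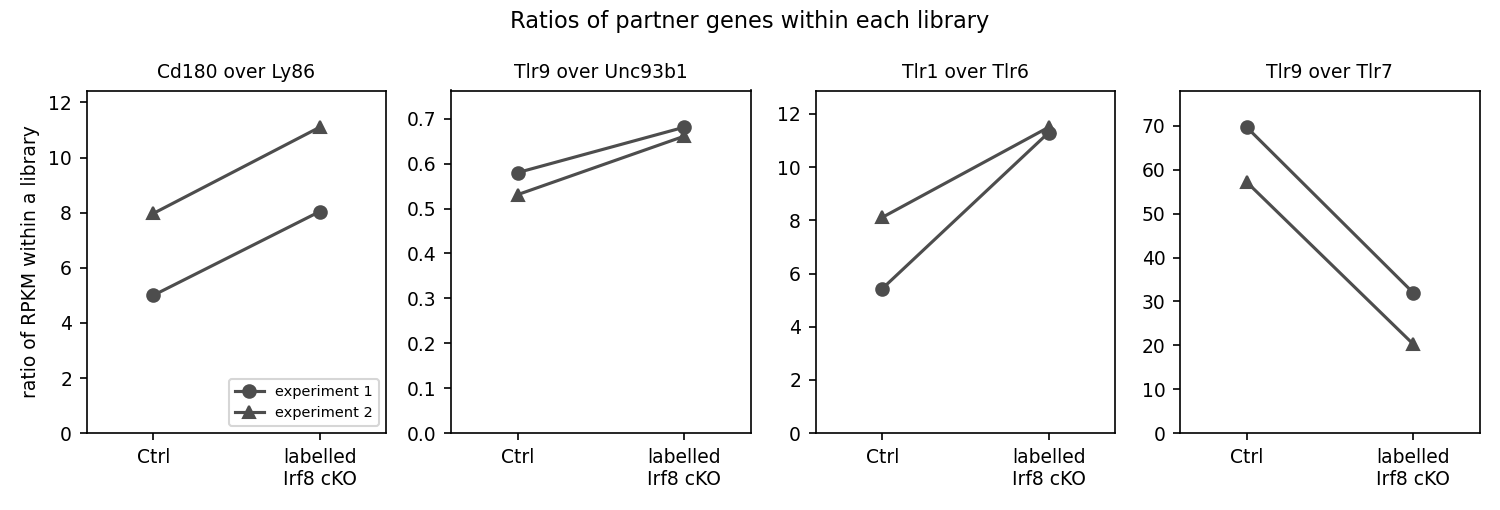
RPKM of one gene divided by that of its partner within the same library, for Cd180 over Ly86, Tlr9 over Unc93b1, Tlr1 over Tlr6 and Tlr9 over Tlr7; lines join the 2 libraries of an experiment. Within-library ratios do not depend on the scaling, and Cd180 over Ly86 was 5.0 and 7.97 in Ctrl and 8.04 and 11.1 in the cKO-labelled libraries.

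Among surface TLRs, Tlr1 measured 6.67 RPKM in Ctrl 1 against 4.82, and 7.52 in Ctrl 2 against 3.71, in the cKO-labelled libraries. After scaling the groups overlapped, at 85.9% and 82.0% of Ctrl, with a log2 ratio of -0.21 ± 0.17 (SE; limma, adjusted p = 0.679; 95% interval from -0.58 to 0.15). That ratio was -0.63 as deposited, -0.36 without Ctrl 1, -0.07 without Ctrl 2, -0.10 without cKO-labelled library 1 and -0.33 without cKO-labelled library 2. Tlr4, the lipopolysaccharide receptor, measured 1.42 RPKM against 1.06 in experiment 1 and 1.18 against 0.587 in experiment 2. Its scaled values were 89.0% and 82.4% of Ctrl, and its log2 ratio was -0.11 ± 0.16 (adjusted p = 0.849; 95% interval from -0.46 to 0.24), with -0.35 as deposited and -0.06 without cKO-labelled library 2. The log2(scaled RPKM + 1) scale understates changes of genes near 1 RPKM, such as Tlr4.

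Tlr6, the close relative of Tlr1 beside it on chromosome 5, had the lowest percentage of Ctrl of the 10 in each experiment, on either scale. In experiment 2 Tlr6 lay next to Ly86 (58.0% against 58.3% of Ctrl after scaling). It measured 1.23 RPKM in Ctrl 1 against 0.428, and 0.927 in Ctrl 2 against 0.324, an estimated 332 and 216 reads against 120 and 76. The groups did not overlap, and scaled values were 41.4% and 58.0% of Ctrl. Only Ctrl 1 reached 1 RPKM, so Tlr6 was not tested, and in the fit with no filter its log2 ratio was -0.40 ± 0.18 (SE; limma, adjusted p = 0.627). The authors' deposited table gives it -1.32 (p = 0.0280) and -0.80 (p = 0.333). Of the 50-base words of the Tlr6 transcript 12.5% also occur in Tlr1, and of those of Tlr1 15.3% occur in Tlr6, so reads could be split between the pair. The RPKM of Tlr1 was 5.43 and 8.11 times that of Tlr6 in Ctrl and 11.3 and 11.5 times in the cKO-labelled libraries.

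Neither gene for a shared signalling protein passed. Myd88 measured 1.10 RPKM in Ctrl 1 against 1.08, and 0.877 in Ctrl 2 against 1.13, in the cKO-labelled libraries. As deposited the groups overlapped, and after scaling both cKO-labelled libraries lay above Ctrl, at 117% in experiment 1 and 214% in experiment 2. The log2 ratio was 0.35 ± 0.17 (SE; limma, adjusted p = 0.482; 95% interval from -0.03 to 0.72). For Myd88 this value depended on 1 library: it was 0.14 without cKO-labelled library 2 and 0.55 without cKO-labelled library 1, and it was 0.08 as deposited and 0.60 with a pseudocount of 0.1. Irak1 measured 2.84 RPKM against 2.90 in experiment 1 and 3.64 against 1.97 in experiment 2. Its scaled values overlapped, at 121% and 90.2% of Ctrl, with a log2 ratio of 0.04 ± 0.17 (adjusted p = 0.953; 95% interval from -0.32 to 0.40) that changed sign to -0.31 as deposited. The microRNA genes Mir5132 and Mir718 overlap Irak1 on its own strand.

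**Figure D3:**
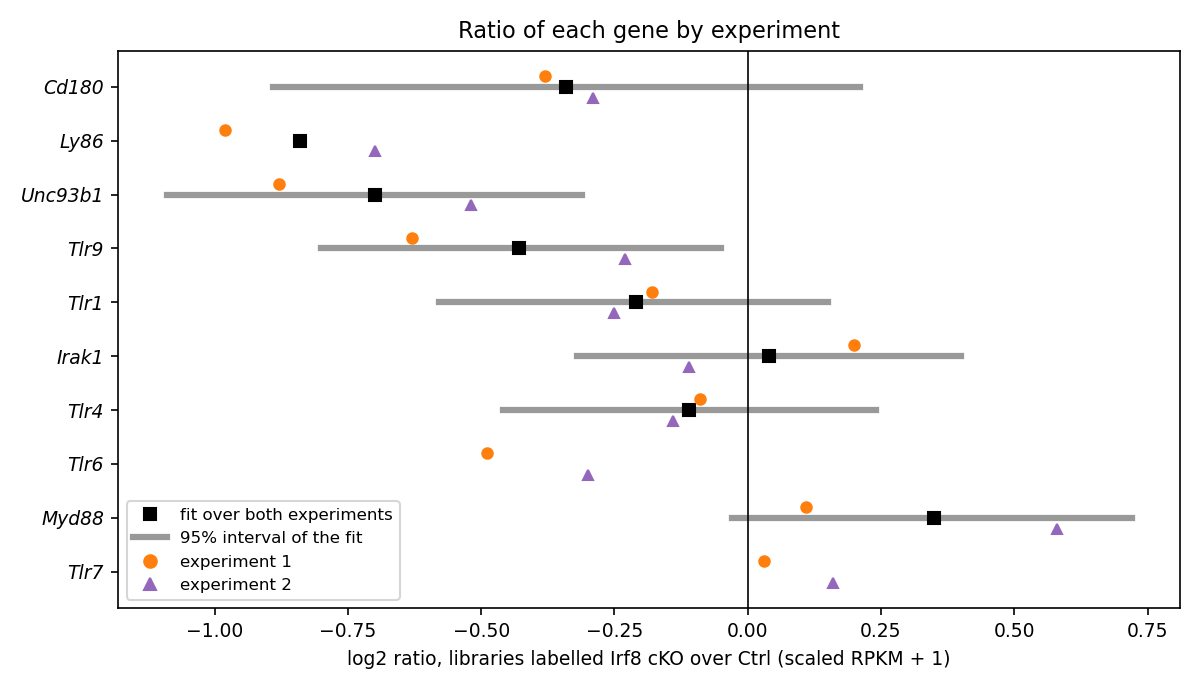
Log2 ratio of cKO-labelled libraries over Ctrl, on scaled RPKM + 1, for each of the 10 genes: black squares are the fit over both experiments, grey bars its 95% interval, orange circles experiment 1 and purple triangles experiment 2. Ly86 has no interval because it was picked for this difference, and Tlr6 and Tlr7 have no fit because they lay below the filter; the interval of Unc93b1 runs from -1.09 to -0.31.

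Of the 7 tested genes not picked for their values, 5 had a log2 ratio below 0 after scaling, with a median of -0.21 beside -0.02 over all genes tested. Of all genes tested, 53.4% were below 0 after scaling and 92.4% as deposited. As deposited the medians were -0.63 and -0.35. Groups did not overlap after scaling for 4 lower genes and 1 higher gene of the 7 (57.1% and 14.3%), beside 17.2% lower and 14.0% higher over all genes tested. As deposited it was 5 lower and 0 higher of the 7 (71.4% lower), beside 44.7% lower and 1.19% higher over all genes tested. These 7 genes were listed with earlier results known, so the counts are descriptions.

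The rest of the TLR pathway was read from 6 lists fixed by role, and 0 of the 36 tested genes passed after scaling, beside the 0.636% of all genes. Among co-receptors, chaperones and processing proteases 9 of 12 genes were tested and 7 had a ratio below 0 (median -0.22), beside 53.4% of all genes tested. Lgmn, the lysosomal asparagine endopeptidase that cleaves TLR9, measured 7.32 RPKM in Ctrl 1 against 3.36 and 5.32 in Ctrl 2 against 1.65. Its log2 ratio was -0.72 ± 0.17 (SE; limma, adjusted p = 0.0712), and it was the one gene of the 6 lists to pass as deposited (-1.09, adjusted p = 0.0356). In the deposited fit the variance came wholly from the trend over all genes, so more than the scale differed. Ctss, which encodes the protease cathepsin S, measured 16.1 against 7.06 and 8.79 against 4.70 RPKM (log2 ratio -0.50, adjusted p = 0.348). Hsp90b1, the chaperone gp96 that folds TLRs, and Ap3b1, a subunit of the AP-3 sorting complex, had log2 ratios of 0.19 and 0.34 (adjusted p = 0.806 and 0.472), and both were below 0 as deposited, at -0.28 and -0.08.

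Adaptors and kinases lay around 0, with 12 of 17 tested, 5 below 0 and a median of 0.01. Irak4, the kinase that activates IRAK1, was lowest at -0.40 (adjusted p = 0.411), with 1.81 RPKM against 1.34 in experiment 1 and 2.08 against 0.508 in experiment 2. Tirap, the bridging adaptor of surface TLRs, stood at -0.08. The ubiquitin ligase gene Traf6 stood at 0.11 and its partner Tab2 at 0.12, both below 0 as deposited (-0.24 and -0.32). Of 8 output factors 6 were tested and all 6 were below 0 (median -0.14), beside 53.4% of all genes tested. They ran from -0.24 for the NF-kB subunit gene Rela to -0.06 for Nfkb1. Irf5, an interferon regulatory factor that acts below MyD88, stood at -0.17 and Irf3 at -0.07. The 4 tested brakes ran from -0.34 for Tnfaip3, which encodes the deubiquitinase A20, over Tollip (-0.26) and Cyld (-0.06) to 0.01 for Nfkbia, with Nfkbia at -0.29 as deposited.

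The 5 proteins that carry RP105 signals in B cells had a median log2 ratio of 0.05, and 1 of them was below 0, beside 53.4% of all genes tested. Lyn, the Src-family kinase activated by RP105, measured 17.8 RPKM in Ctrl 1 against 12.4 and 17.0 in Ctrl 2 against 7.0 (log2 ratio -0.39, limma adjusted p = 0.457). Btk (0.00) and Syk (0.07) did not pass. As deposited Btk and Syk were at -0.40 and -0.39.

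**Figure D4:**
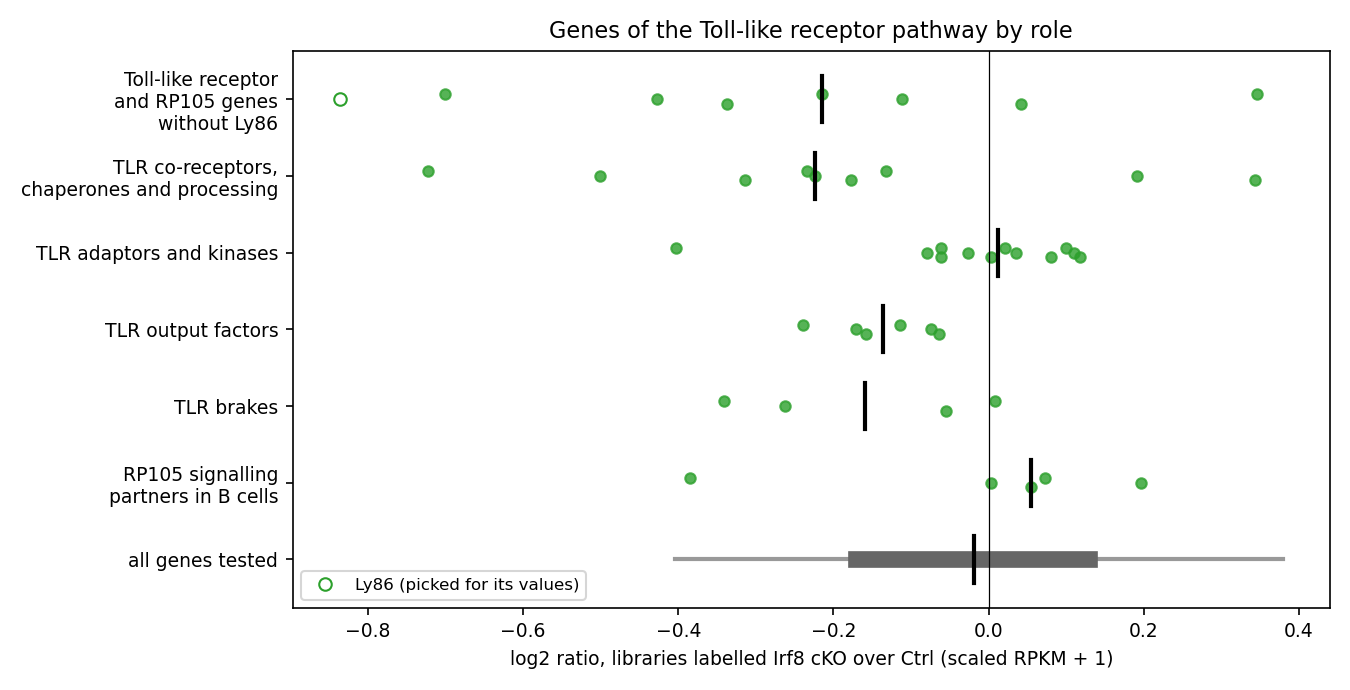
Log2 ratio of cKO-labelled libraries over Ctrl (scaled RPKM + 1) for the tested genes of the TLR and RP105 set and of the lists by role; filled dots are genes, the open circle is Ly86, which enters no median, and black ticks are medians. For all genes tested the thick bar spans the 25th to 75th percentile from -0.17 to 0.13 and the thin bar the 5th to 95th percentile, from -0.40 to 0.38.

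Genes with a profile most like that of Ly86 over the 4 libraries were named by the Euclidean distance between centred log2(scaled RPKM + 1). The nearest 5 of 6446 were Rgcc, a regulator of the cell cycle, Xkrx, Psmb8, a catalytic subunit of the immunoproteasome, Tpd52 and Atp5k, a subunit of mitochondrial ATP synthase, at distances from 0.128 to 0.190. Rgcc stood at 4.09 and 2.57 RPKM in Ctrl, beside 1.29 and 0.546 in the cKO-labelled libraries. Of the TLR and RP105 genes, Unc93b1 ranked 93 by this distance (0.421), Tlr9 232 (0.521) and Cd180, the partner receptor, 1407 (0.742). Over 4 libraries such likeness is a description only.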

How the data were processed

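Per the series design text, the authors deposited 1 table per experiment with RPKM per RefSeq gene, made in Wardrobe; for the series as a whole, DESeq, Cuffdiff, Cufflinks 2.2 and the aligner TopHat2 2.0 stand in the submitters' processing notes, and the design text gives the aligner beside the lipopolysaccharide samples, not beside these tables. Per the labels' protocols, RNA was amplified with Ovation RNA-Seq System v2 and made into libraries with Nextera XT. Per the file headers each table holds the authors' log2 ratio and p-value of 1 library against 1; that deposited log2 ratio is the log2 RPKM ratio plus a constant (0.205 and 0.721 for the first and second table; 97.1% and 96.3% of genes lie within 0.05 of it). The submitters' processing notes name mm9 and mm10, and the transcript starts match GRCm38 (mm10).

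RPKM were divided by median-of-ratios factors (over 4615 genes with RPKM of 1 or more in all 4 libraries; 1.2587 and 1.1213 for Ctrl 1 and 2, 1.059 and 0.6752 for Irf8 cKO 1 and 2) and tested as log2(scaled RPKM + 1), which understates changes of low genes. Genes reaching 1 RPKM in 2 or more libraries entered limma 3.58.1 in R 4.3.3 (trend in the variance, 2-sided, Benjamini-Hochberg, experiment as a block). The code was also run on simulated data. The changes planted there were much larger than the ratios reported here, and no experiment effect was simulated. That run therefore says nothing of the power at the sizes reported. The block follows the experiment numbers of the labels; deviations of same-numbered libraries correlated at 0.333. Python 3.11.15 (pandas 2.3.3, numpy 2.4.6) made the tables, and matplotlib 3.10.9 drew the figures.

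Totals were the lowest that made reads of single-exon genes whole: 96.5% to 98.6% of values under 6 reads were whole within 0.1. Reads per gene used GENCODE M21 transcript lengths and are approximate. RNA was amplified without molecular identifiers, so read numbers cover counting error only. Entries were matched by RefSeq accession. The genes named are the 10 members, the lowest and highest 2 tested genes of each list by role, any listed gene that passed, and the 5 nearest to Ly86. One gene this rule takes is not reported here. Members, lists and tests were chosen with earlier results of these data known. The alternatives were the deposited scale, a pseudocount of 0.1, no filter, no block and each library left out.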

Additional observations from a re-analysis of the deposited data

How the results depend on the processing

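No tested gene of the 7 passed under any alternative tried: the deposited scale, a pseudocount of 0.1, no filter on low values, no replicate block, each library left out, and scaling factors over genes above 0 in all 4 libraries, the last chosen after seeing the data. The fits that leave out a library have no block, and where 1 library of a group is left it is assumed to vary like the others. Dropping the filter or the block leaves a log2 ratio as it is. Ratios within an experiment or without a library are drawn from the same 4 libraries. A kept sign is thus no independent support for a direction. Of 77 alternative log2 ratios of these 7 genes, 74 kept their sign, and their sizes moved as given with each gene. The exceptions were for Irak1, at -0.31 as deposited, -0.11 within experiment 2 and -0.15 without Ctrl 1 (up to 0.23 elsewhere among fits with a library left out). Counts over all genes depended on the processing: 26 lower and 15 higher became 71 and 6 as deposited, so that 92.2% rather than 63.4% of calls were lower, 13 and 8 with a pseudocount of 0.1, 5 and 2 without the replicate block, and 0 and 0 with no filter or with the other factors. At an unadjusted p under 0.05, limma then counted 1205 of 15559 genes tested with no filter, and 664 of 6447 with the other factors. With a library left out, lower calls ran from 0 to 1 and higher calls from 0 to 1, with 131 to 602 genes at an unadjusted p under 0.05. A count of 0 in such fits thus says nothing of the stability of a gene. The weight of the variance trend also differed between fits (prior degrees of freedom 13.1 in the main fit, infinite as deposited). The cause of these differences in counts was not tested.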
